A study of Mus musculus with 20 samples.

Results

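Vascular smooth muscle cells were picked out of single-cell RNA sequencing (scRNA-seq) of the dentate gyrus (DG) of Nestin-EGFP mice by the RNA of 5 marker genes. A barcode was kept as a cell with at least 1000 unique molecular identifiers (UMIs, each standing for 1 captured RNA molecule), 500 genes or more and no more than 10% of its UMIs from mitochondrial genes. It was called a smooth muscle cell with at least 2 UMIs of Myh11 and at least 15 UMIs summed over Acta2, Tagln, Myh11, Pln and Map3k7cl. By this rule 307 of 21832 cells were smooth muscle cells. At postnatal day 5 (P5) there were 33 among 13684 cells, at 12 weeks (12w) 179 among 5351, and at 24 weeks (24w) 95 among 2797.

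Vascular smooth muscle cells wrap arteries and arterioles and set their width. Calcium bound to calmodulin switches on myosin light chain kinase, which lets smooth muscle myosin pull on alpha-actin, and myosin phosphatase, cyclic GMP and potassium channels oppose this pull. Pericytes, the mural cells of capillaries and the nearest relatives of smooth muscle cells in the brain, share many of their genes and carry less of the contractile machinery. They are the cells that the smooth muscle cells are set against here.

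All libraries came from Nestin-EGFP mice, in which a Nestin promoter drives the green protein, and the sort held mural cells beside the neural stem cells that the study was after. The DG was dissected at P5, 12w or 24w and digested with papain, and viable EGFP+ cells were collected by flow cytometry for scRNA-seq and single-cell ATAC-seq (scATAC-seq) on the 10X platform. There was 1 library per age and assay, and the labels used here do not give the number or sex of the mice. Differences between ages therefore have no replicate error, no test was applied, and every interval given is an exact 95% interval for counting error only.

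Some features of the libraries bear on every comparison. The P5 library listed only selected barcodes, with at least 1495 UMIs each, whereas the adult libraries listed all barcodes. Of the smooth muscle cells at 12w, 176 had Xist (the RNA of the silenced X chromosome) and none had RNA of the Y chromosome. At 24w none had Xist and 39 had Y RNA, so age and sex cannot be told apart between 12w and 24w. Of the 33 smooth muscle cells at P5, 7 had only Xist, 12 only Y RNA and 5 both, and both were also found together in 54 of 623 P5 pericyte-gated cells, but in none of the adult smooth muscle cells. No barcode was shared by smooth muscle cells of different libraries. RNA of microglia, astroglia and oligodendrocytes in the adult cells was used to estimate how much free RNA they held. The share of UMIs, 12w before 24w, was 9.48% and 8.45% in smooth muscle cells against 21.9% and 34.5% in pericyte-gated cells, and it could not be read at P5. It depended on the RNA used: over the single lists it ran from 3.38% (microglia) to 10.3% (astroglia) in smooth muscle cells at 12w and from 2.51% to 10.2% at 24w, and in pericyte-gated cells it reached 25.2% and 40.1% (oligodendrocytes).

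As a share of sorted cells, smooth muscle cells made up 0.241% (0.166 to 0.339) of the P5 library, 3.35% (2.88 to 3.86) of the 12w library and 3.40% (2.76 to 4.14) of the 24w library. Set against pericytes the ages were closer, with 5.30, 6.17 and 4.47 smooth muscle cells per 100 pericyte-gated cells. Pericyte-gated cells (at least 2 UMIs of Vtn, at least 10 summed over Vtn, Kcnj8, Abcc9, Atp13a5 and Higd1b, and a smooth muscle sum under 15) numbered 623, 2903 and 2125. The median UMIs of a smooth muscle cell were 7523, 3708 and 3792 in order of age, and all of them together held 274923, 738967 and 370326 UMIs. A count of 3 UMIs over a pool, the limit that 0 UMIs allow, came to 10.9, 4.06 and 8.10 UMIs per 1000000 (CPM).

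The marker UMIs that chose the cells describe them and are no finding. On GRCm38 these genes lie at chr19:34241090-34255590 (Acta2), chr9:45929619-45936058 (Tagln), chr16:14194535-14291372 (Myh11), chr10:53337667-53345987 (Pln) and chr16:87553330-87595336 (Map3k7cl). Acta2, the alpha-actin of smooth muscle, had a median of 41 UMIs per cell at P5 and 32 at both adult ages. Tagln, an actin-binding protein, had 12, 16 and 18, and Myh11, the smooth muscle myosin heavy chain, had 2, 3 and 3. Pln, the phospholamban that restrains the calcium pump of the sarcoplasmic reticulum, had 0, 2 and 2, and 28 of 33 P5 cells had none. At each age the medians of Acta2 and Tagln were the highest, so the sum rested mainly on them. Myh11 stood at exactly 2 UMIs, the least that the rule allows, in 17 of the 33 P5 cells.

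**Figure D1:**
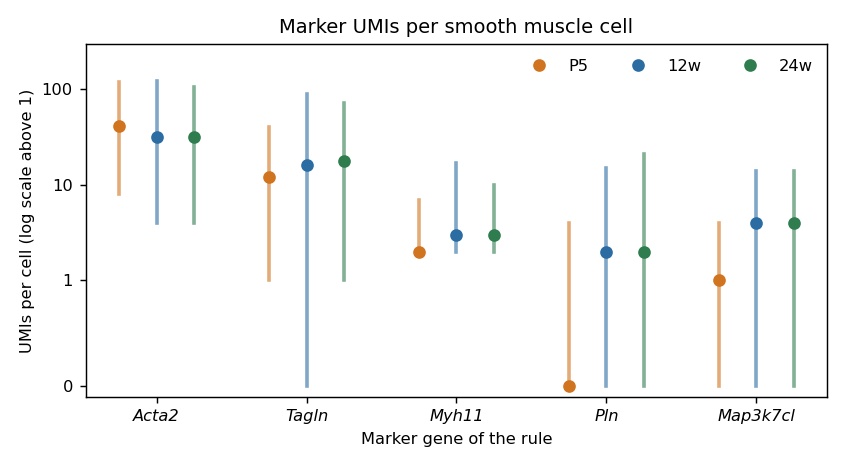
UMIs per smooth muscle cell (y axis, log scale above 1) for the 5 marker genes (x axis) at P5, 12w and 24w. Points are medians over cells and lines run from the lowest to the highest cell, and Pln is seen at a median of 0 at P5 and of 2 at both adult ages.

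A sum of at least 15 with fewer than 2 UMIs of Myh11 was found in 35, 186 and 77 cells in order of age. At 12w those cells held Sncg at 933 CPM and Tesc at 230 CPM, against 1252 and 457 CPM in the smooth muscle cells and 39.99 and 10.1 CPM in pericyte-gated cells. At 24w they held 1078 and 227 CPM of these genes, which the rule did not use, against 1534 and 486 in the smooth muscle cells. At P5 their Tesc was at 10.4 CPM, against 76.4 in smooth muscle and 9.84 in pericyte-gated cells. Few cells lay at the edge of the sum: 12 smooth muscle cells had 15 to 19 marker UMIs, of which 2 came from the P5, 7 from the 12w and 3 from the 24w library.

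Pericyte markers were the most abundant of the other cell types' markers in the smooth muscle cells, and at P5 those of neurons and astroglia were also present, as given with the P5 results. Vtn, a secreted glycoprotein abundant in brain pericytes, was at 695, 3796 and 4456 CPM in order of age, against 2060, 15704 and 17494 CPM in pericyte-gated cells. Kcnj8, a pericyte potassium channel, was at 47.3, 218 and 189 CPM against 827, 1934 and 1900. Vtn and Kcnj8 belong to the pericyte gate, so their higher level in pericyte-gated cells was set by that choice. Rgs5, which marks both mural types, was at 6780, 8416 and 8849 CPM against 5822, 5740 and 5611. Of 10 endothelial markers, the sum was 76.4, 281 and 391.5 CPM, with a median of 0 UMIs per cell at each age, although 1 cell held 113 of the 208 UMIs at 12w and 1 held 53 of the 145 at 24w, and pericyte-gated cells had 125, 301 and 519 CPM. All 7 microglia markers were at 0 UMIs at P5, and 6 of 7 were at 0 at each adult age. Fibroblast markers summed to 451, 204 and 138 CPM, with Lum at 0 UMIs at each age. Scrublet called 3, 1 and 1 of the smooth muscle cells doublets. Smooth muscle genes that the rule did not use, among them Lmod1, Mylk and Des, are described with the first comparison.

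Sequences before 2 of the contractile genes show the element best known for binding serum response factor, the CArG box, in capitals. Myl9 encodes the regulatory light chain that the kinase phosphorylates, and Vcl encodes vinculin, which ties actin to the membrane. They are shown as 2 of the 4 contractile genes with such a box near the start. Pln is shown for its open chromatin, which differed between the ages and is described further on. The sequences are RefSeq's on the GRCm38.p6 build, read 5′ to 3′ on the plus strand, at chr2:156775214-156775413 for Myl9, chr14:20929148-20929347 for Vcl and chr10:53337436-53337635 for Pln. None of these stretches overlapped an annotated exon.
Myl9: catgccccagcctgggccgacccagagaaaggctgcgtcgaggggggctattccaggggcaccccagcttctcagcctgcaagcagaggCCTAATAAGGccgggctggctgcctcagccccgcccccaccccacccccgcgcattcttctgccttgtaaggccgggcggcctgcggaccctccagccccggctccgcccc
Vcl: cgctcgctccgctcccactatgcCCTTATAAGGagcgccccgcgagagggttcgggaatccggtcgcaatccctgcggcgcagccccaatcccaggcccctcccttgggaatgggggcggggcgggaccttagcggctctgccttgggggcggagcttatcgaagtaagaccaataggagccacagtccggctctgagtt
Pln: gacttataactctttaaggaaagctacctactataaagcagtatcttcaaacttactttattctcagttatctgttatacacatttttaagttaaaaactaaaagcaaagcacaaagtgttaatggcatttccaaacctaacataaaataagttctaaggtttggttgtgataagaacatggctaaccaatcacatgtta

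The CArG box (a palindrome, so both strands are read at once) began 161 bases before the start of Myl9 and 227 before that of Vcl. In the 250 bases before the start it was present in 4 of 23 contractile genes with a sequence, Myl9, Myl6, Vcl and Ldb3, and in 1.52% of all 17999 genes with a sequence. No box was found in the windows of Acta2 and Pln, which says only that these letters are not in these windows. Sequences for Tagln, Myh11 and Map3k7cl were not used here.

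The first comparison asks how adult smooth muscle cells differ from pericytes of the same libraries. A gene was called higher or lower if it differed at least 2-fold the same way at both adult ages and the higher group held 20 UMIs or more each time. Apart from the genes of the rule and of the pericyte gate, 10781 genes were compared, of which 259 were higher in smooth muscle cells (2.4%) and 796 lower (7.38%). Both groups of cells were chosen from these UMIs, so the calls describe them. Of the lists, the contractile apparatus had the most genes higher (16). A gene that reached 20 UMIs in only 1 group could be called higher only there, so counts of genes compared describe these pools. Pooled UMIs were fewer in smooth muscle cells, and where at least 20 UMIs would have been expected in them at an equal level, 228 genes were lower. The median log2 ratio over all genes compared was −0.19 at 12w and −0.20 at 24w, to which the list medians below can be set.

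Of 25 genes listed under the contractile apparatus 22 were compared, and 16 of these were higher and none lower, with a median log2 ratio of 2.09 at 12w and 2.24 at 24w. The list also held Sncg and Mustn1, which are not parts of the actin and myosin machinery, and both are among the 16. All 16 remained called without scrublet doublets, with each cell weighted equally, with free RNA subtracted and after scaling by the median ratio. Among actin filament genes, Tpm2 (a tropomyosin) was at 2284 CPM (2177 to 2396) at 12w and 2371 (2217 to 2533) at 24w, which was 10.3-fold and 10.0-fold the level in pericyte-gated cells. Lmod1 (leiomodin, which starts actin filaments) was at 318 and 327 CPM, 10.6-fold and 18.0-fold the level in pericyte-gated cells. Pdlim3, a Z-disc adaptor, showed larger folds, with 218 and 235 CPM against 5.04 and 9.50 CPM.

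Genes of myosin and of its switch were higher as well. Myl9 was at 7563 and 8085 CPM, 2.63-fold and 2.80-fold the level in pericyte-gated cells. Mylk, the light chain kinase itself, was at 964 and 1015 CPM, 4.22-fold and 4.59-fold higher. Both targeting subunits of myosin phosphatase were called, Ppp1r12a by 2.40-fold and 2.64-fold and Ppp1r12b by 12.0-fold and 9.68-fold. The phosphatase inhibitor Ppp1r14a was not called, at 476 and 535 CPM against 605 and 598. Cald1 (caldesmon) and Vcl did not pass either, with ratios of 0.923 and 0.832 for Cald1 and of 1.21 and 1.08 for Vcl. Cnn1 (calponin), a common smooth muscle marker, had only 6 and 12 UMIs in all adult smooth muscle cells.

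**Figure D2:**
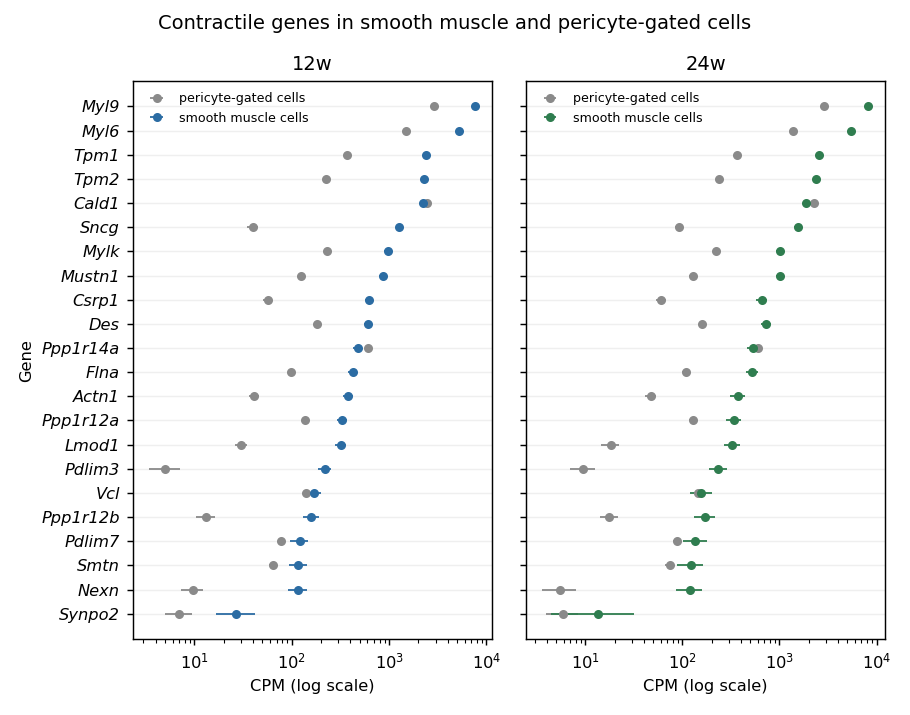
CPM (x axis, log scale) of the 22 genes compared from the contractile list (y axis) in smooth muscle cells (coloured) and pericyte-gated cells (grey) at 12w (left) and 24w (right). Points are pooled levels of 1 library and bars are exact 95% counting intervals, and 16 genes lie at least 2-fold to the right in smooth muscle cells at both ages, whereas Cald1, Vcl and Ppp1r14a overlap or lie close.

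Of 26 genes of calcium handling and ion channels 17 were compared, 6 of which were higher. They were subunits of the voltage-gated potassium channel (Kcna5, Kcnab1), the beta subunit of the calcium-activated potassium channel (Kcnmb1), calcium pumps of the sarcoplasmic reticulum and the plasma membrane (Atp2a2, Atp2b4), and Jph2, which holds these membranes together. Kcna5 was at 100 CPM (78.6 to 126) at 12w and 103 (72.6 to 141) at 24w, against 3.41 and 2.22 CPM in pericyte-gated cells. Kcnab1 was at 92.0 and 83.7 CPM against 2.76 and 2.22. Kcnmb1 was only just past 2-fold, at 2.03-fold and 2.19-fold, and was lost without doublets, with free RNA subtracted, with cells of at least 2000 UMIs and with a stricter pericyte gate. The pore of the L-type calcium channel, Cacna1c, was not called, with ratios of 1.35 and 1.48, and Kcnma1, the pore that Kcnmb1 attaches to, had 1 UMI at each adult age.

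Of 14 genes of cyclic nucleotide and RGS signalling 13 were compared and 4 were higher: the phosphodiesterases Pde3a and Pde1a, Mrvi1 (a target of the cyclic GMP kinase at calcium stores) and Rgs7bp. Pde3a was at 231 CPM at 12w and 189 at 24w, 7.12-fold and 6.32-fold the level in pericyte-gated cells. The subunits of the nitric oxide receptor, Gucy1a3 and Gucy1b3, were not called, with ratios between 0.824 and 1.19. Rgs5 was also not called, at 1.47-fold and 1.58-fold.

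Receptors separated the cells in both directions. Of 37 vasoactive receptors 19 were compared, 2 of which were higher and 5 lower. Npy1r, the receptor of neuropeptide Y, was at 172 CPM (143 to 204) and 159 (121 to 206), 2.87-fold and 3.62-fold the level in pericyte-gated cells. Olfr558, an olfactory receptor, was at 258 and 248 CPM, 10.2-fold and 10.4-fold higher. Lower were P2ry14, Adora1, Adora2a, S1pr3 and Lpar1. S1pr3, a sphingosine 1-phosphate receptor, was at 94.7 and 116 CPM against 432 and 436, and Lpar1 had 0 UMIs at either adult age against 20.6 and 17.6 CPM, so it was at least 5.09-fold and 2.17-fold lower. Adora1 likewise had 0 UMIs, but its 4.23 and 4.45 CPM in pericyte-gated cells are about as low as 3 UMIs in the smooth muscle pools (4.06 and 8.10 CPM), so a difference was not detectable at this depth. Adora2a was lost after scaling by the median ratio. Ednra, the endothelin receptor of vessel walls, was not called, at 173 and 176 CPM with ratios of 1.21 (1.0002 to 1.46) and 1.24 (0.949 to 1.60).

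**Figure D3:**
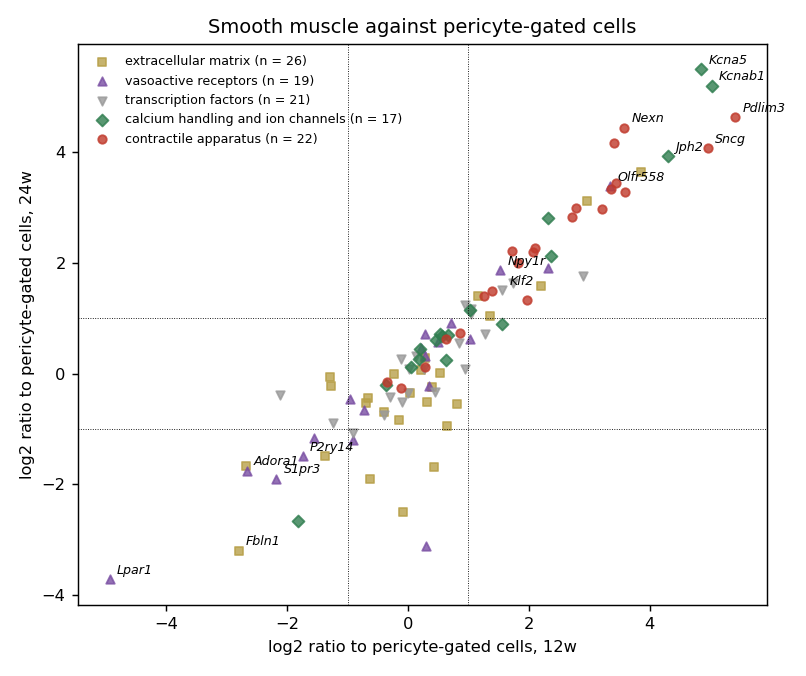
Log2 ratio of smooth muscle to pericyte-gated cells at 12w (x axis) and 24w (y axis) for the compared genes of 5 lists, 1 point per gene, with dotted lines at 2-fold. Contractile genes (circles) lie at or above 0 or just below it, and the receptors (triangles) reach from Olfr558 at the upper right to Lpar1 at the lower left.

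Of 26 matrix genes compared, Ltbp1 (which stores TGF-beta in the matrix) and the laminin chains Lama5 and Lamb2 were higher, and Fbln1, Mfap4 and Col5a2 were lower, of which Mfap4 turned sign with free RNA subtracted. Ltbp1 was at 104 CPM at 12w and 70.2 at 24w, against 7.15 and 5.66 in pericyte-gated cells. Of 15 adhesion genes compared 4 were higher, the laminin receptor Itga7 and the caveolar genes Cav1, Cav2 and Ptrf, and 1, Cdh2, was lower. Cav1 was at 394 and 305 CPM, 13.1-fold and 14.7-fold the level in pericyte-gated cells.

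Of 21 transcription factors compared, Klf2 and Prrx1 were higher and none was lower, and Prrx1 was lost with each cell weighted equally or with free RNA subtracted. Klf2 was at 83.9 and 127 CPM against 28.6 and 45.3. Srf, the factor that binds CArG boxes, was at 35.2 and 37.8 CPM against 10.7 and 12.5, but at 24w had too few UMIs to be called. Its partner Myocd had 4 and 3 UMIs. Of 10 Notch genes compared 1 was higher and 1 lower: Nrip2, a corepressor, was at 865 and 694 CPM (12.5-fold and 14.6-fold), and Dll4 had 1 and 0 UMIs. Notch3 was at 635 and 678 CPM, 1.62-fold and 1.57-fold the level in pericyte-gated cells, and was not called.

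Over all genes compared, those with the largest excess included Tesc, Fbxl22, Kcnab1, Ngb, Kcna5, Pdlim3, Smim5, Palld, Adamtsl1, Pex5l, Mrgprf, Net1, Sncg and Hspb7. Tesc (tescalcin, a calcium-binding protein) was at 457 CPM (410 to 509) and 486 (418 to 562), 45.4-fold and 50.1-fold the level in pericyte-gated cells, and was found in 70.9% and 74.7% of smooth muscle cells. Ngb (neuroglobin, an oxygen-binding protein better known from neurons) was at 94.7 and 146 CPM against 2.11 and 4.65. Sncg (gamma-synuclein) was at 1252 and 1534 CPM against 39.99 and 91.5.

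The largest deficits were those of Spp1, Sfrp2, Syt12, Tmem108, Lpar1, Fgf12, Mnda, Hist1h2ap, Cenpm and Caly. Spp1 (osteopontin) was at 8 and 2 UMIs in smooth muscle cells, and pericyte-gated cells had 21.6-fold (11.0 to 50.2) and 42.5-fold (11.7 to 351) their level. Syt12, Tmem108, Lpar1, Fgf12, Cenpm and Caly had 0 UMIs in the adult smooth muscle cells, against 6.99 to 27.7 CPM in pericyte-gated cells. With 3 UMIs over the pool as the floor, 12w before 24w, Syt12 was at least 6.41-fold and 2.44-fold lower, Tmem108 at least 2.202-fold and 3.42-fold, and Fgf12 at least 5.09-fold and 2.12-fold. For Cenpm (2.88-fold and 1.82-fold) and Caly (1.72-fold and 1.77-fold) the floor did not reach 2-fold at each age, so such a difference was not detectable at this depth. Genes of the cell cycle were also lower, 6 of 10 compared, with Birc5, a survivin of dividing cells, on 2 and 1 UMIs and 6.43-fold (1.74 to 53.7) and 6.14-fold (1.07 to 245) higher in pericyte-gated cells. With each cell weighted equally only 1 of them was called lower and Ccna2 and Birc5 turned sign. At 12w 21 of 2903 and at 24w 20 of 2125 pericyte-gated cells held at least 10 cell cycle UMIs. None of the 179 and 95 smooth muscle cells did, which at shares this small does not show a difference. Neuron and oligodendrocyte markers were lower too, 4 of 6 each, and with free RNA subtracted 1 of each stayed lower, while Stmn2, Snap25, Mbp and Olig2 turned sign. Of the pericyte markers outside the gate 2 of 5 were lower, Pdgfrb and Anpep, of which Pdgfrb was lost after scaling by the median ratio and with cells of at least 2000 UMIs, and none of 9 endothelial markers compared was called.

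Immediate early genes respond quickly to many stimuli, tissue dissociation among them. Of 17 compared 7 were higher in smooth muscle cells and none lower: Fos, Jun, Junb, Hspa1a, Dusp1, Nr4a1 and Cyr61. Fos was at 502 and 578 CPM against 61.4 and 55.2 in pericyte-gated cells, from 30.7% and 29.5% of the smooth muscle cells. Jun and Hspa1a were lost with each cell weighted equally. Their part in the other results was not tested.

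The second comparison asks what differed between smooth muscle cells at 24w and 12w. Of 5234 genes compared, 45 were higher at 24w (0.86%) and 162 lower (3.1%), with a median log2 ratio of −0.01 over all of them. The 24w pool held fewer UMIs than the 12w pool, and where at least 20 UMIs would have been expected at 24w at an equal level, 41 genes were lower. None of the 22 contractile genes compared, of the 16 ion channel and calcium genes or of the 13 vasoactive receptors was called in either direction. Synpo2 was lower at 24w with each cell weighted equally, and Abcc9 was with free RNA subtracted. Acta2 was at 9235 CPM (9017 to 9456) at 12w and 9389 (9080 to 9706) at 24w, Myh11 at 922 and 994, and Tpm1 at 2410 and 2544.

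The 10 largest rises were those of Ddx3y, Dbp, Slc16a11, Nr1d1, Tcap, Sbspon, Ptprb, Cygb, Plac9a and Gm10269. Dbp, a clock output factor, rose from 5.41 to 140 CPM (25.9-fold, 9.55 to 98.8), and the clock repressor Nr1d1 from 12.2 to 72.9. The same genes were at 15 and 238 CPM and at 14 and 117 CPM in the pericyte-gated cells of these libraries. Tcap, a Z-disc protein of striated muscle, rose from 12.2 to 64.8 CPM, with 0 and 1.01 CPM in pericyte-gated cells. Slc16a11, a monocarboxylate carrier, rose from 12.2 to 103 CPM, with 0.975 and 20.6 CPM in pericyte-gated cells.

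The 10 largest falls were those of Xist, Gm5900, Chd8, Col3a1, Ylpm1, Ptpn2, Inafm2, Meg3, Fam110a and Eif3j2. Col3a1, the chain of type III collagen, fell 6.77-fold (1.70 to 58.7) on 27 and 2 UMIs, in 5.59% and 2.11% of cells, while pericyte-gated cells had 39.2 and 37.8 CPM. Meg3, a long noncoding RNA abundant in neurons, fell from 227 to 54.0 CPM, with 285 and 142 CPM in pericyte-gated cells. Chd8, a chromatin remodeller, fell 8.27-fold (2.11 to 71.1) on 33 and 2 UMIs, with 34.8 and 36.2 CPM in pericyte-gated cells. Of the 45 rises 12, and of the 162 falls 12, were at least 2-fold the same way in pericyte-gated cells, and none was at least 2-fold the opposite way. By sign alone, for which no share over all genes compared is given, 38 of the rises and 103 of the falls went the same way there. Their median log2 ratios there were 0.53 and −0.07, against 1.18 and −1.23 in smooth muscle cells. Among all 11568 genes compared in pericyte-gated cells, 3.51% were higher and 0.847% lower at 24w. These shares rest on another set of genes and ask for at least 20 UMIs where higher, which the overlap did not. The summed neuron markers went from 332 to 94.5 CPM in smooth muscle cells. Meg3, already named among the falls, is in that list and made up 227 and 54.0 CPM of these sums. The part of the neuron markers in the result was not tested.

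The third comparison sets the 33 cells at P5 against both adult ages. Of 3465 genes compared, 331 were higher at P5 (9.55%) and 628 lower (18.1%), each at least 2-fold against 12w and against 24w. Sncg, Olfr558, Kcna5, Lmod1 and Pdlim3 were among the genes lower at P5, and Col4a1, Col4a2, Actg2 and Dlk1 among those higher. As above, a gene that reached 20 UMIs in P5 cells alone, or in adult cells alone, could be called higher only there. The median log2 ratio over all genes compared was −0.16 against 12w and −0.24 against 24w, and after scaling by it 478 genes were higher and 461 lower. Both ratios share the P5 library, and sex, sequencing depth and the listing of barcodes differ between the libraries as given above.

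Of 22 genes compared from the contractile list 11 were lower at P5 and 1 was higher, with a median log2 ratio of −1.04 against 12w and −1.11 against 24w. Sncg and Mustn1, named above as not parts of the machinery, are among the 11. After scaling by the median ratio 8 stayed lower, since Tpm2, Des and Ppp1r14a no longer passed. Sncg had 1 UMI at P5, in 1 of 33 cells, against 925 and 568 UMIs in the adult cells, which were 344-fold (61.6 to 13607) and 422-fold (75.4 to 16684) higher. Mustn1 (a small nuclear protein of muscle) was at 145 CPM (104 to 198), 857 (791 to 926) and 1015 (915 to 1123) in order of age. Lmod1 was at 58.2, 318 and 327 CPM, and Pdlim3 at 18.2, 218 and 235 CPM.

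Of the 10 contractile genes that were not called, Csrp1, a LIM protein, was at 586, 618 and 656 CPM, and Tpm1 at 1957, 2410 and 2544. Of the marker genes used by the rule, Acta2, at 5489, 9235 and 9389 CPM, did not reach 2-fold and was not called, whereas Tagln, Myh11, Pln and Map3k7cl were lower. Pln was at 40.01 CPM (19.97 to 71.6), 602 (548 to 661) and 707 (624 to 799). Since P5 cells had to pass the rule with these genes, their lower level is a description. Actg2, the gamma-actin of visceral smooth muscle, was the contractile gene that was higher at P5, at 113 CPM (76.6 to 160) on 31 UMIs in 30.3% of cells, which was 41.7-fold (10.6 to 359) the 12w and 10.4-fold (3.69 to 40.7) the 24w level, on 2 and 4 UMIs.

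**Figure D4:**
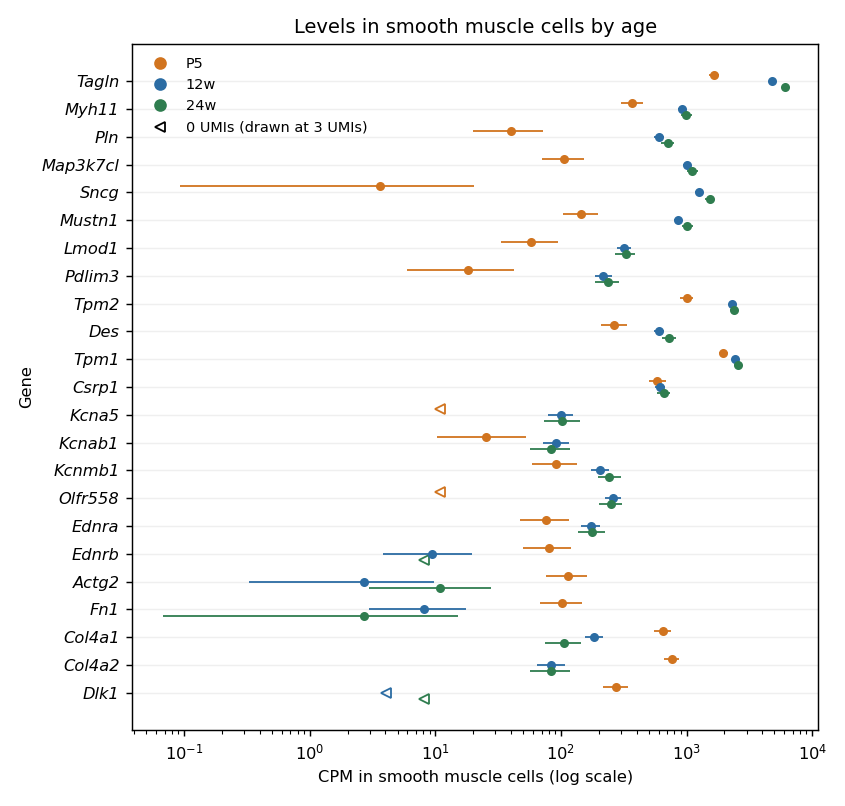
CPM in smooth muscle cells (x axis, log scale) of 23 genes (y axis) at P5, 12w and 24w. Points are pooled levels of 1 library, bars are exact 95% counting intervals, and open triangles stand for 0 UMIs drawn at the level of 3 UMIs. Pln, Sncg, Kcna5 and Olfr558 lie far lower at P5, Tpm1 and Csrp1 lie together, and Actg2, Fn1, Col4a1, Col4a2 and Dlk1 lie higher at P5.

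Of 12 ion channel and calcium genes compared 8 were lower at P5 and none higher. Kcna5 had 0 UMIs at P5 against 100 and 103 CPM, so it was at least 9.18-fold and 9.40-fold higher in the adult cells, with 3 UMIs over the P5 pool as the floor. Casq2, the calcium store protein calsequestrin, was at 61.8, 452 and 443 CPM, and pericyte-gated cells had 31.8, 395 and 328. Atp2a2, the calcium pump, was at 207, 363 and 359 CPM and was not called. Atp2b4 and Kcnmb1 were lost after scaling by the median ratio.

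Of 10 receptors compared 6 were lower at P5, Ednra, P2ry14, Npy1r, Tbxa2r, Adora2a and Olfr558, and 1, Ednrb, was higher. Olfr558 had 0 UMIs at P5, at least 23.7-fold and 22.8-fold below the adult levels, and it had 0 UMIs in P5 pericyte-gated cells as well. Ednra was at 76.4, 173 and 176 CPM and Ednrb at 80.0, 9.47 and 0 CPM. Ednra, Tbxa2r and Adora2a were lost after scaling by the median ratio, the last 2 of them also without scrublet doublets, and Ednrb without scrublet doublets or with each cell weighted equally. Ednrb was at 91.6, 8.13 and 11.5 CPM in pericyte-gated cells.

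Of 15 matrix genes compared 5 were higher at P5, Col1a2, Col4a1, Col4a2, Col18a1 and Fn1, and 3 were lower, Ltbp1, Lamb2 and Sparcl1. Col4a1 and Col4a2, the main chains of basement membrane collagen, were at 644 CPM (552 to 746) and 764 (664 to 874) at P5. They were at 184 and 83.9 CPM at 12w and at 105 and 83.7 CPM at 24w. Pericyte-gated cells had 823, 205 and 190 CPM of Col4a1 and 660, 99.5 and 85.1 of Col4a2, so both chains were also higher at P5 there. Fn1 (fibronectin) was at 102, 8.12 and 2.70 CPM and was lost without scrublet doublets.

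Of 13 adhesion genes compared Itga7, Itgb5, Cav2 and Ptrf were lower and Itga1 (a collagen receptor) was higher, while Cav1 was not called, at 331, 394 and 305 CPM. Ptrf was lost after scaling by the median ratio and Itga1 with a marker sum of at least 30 UMIs. Of 15 transcription factors 4 were lower, Klf2, Tbx3, Foxf2 and Foxs1, the last of which was lost after scaling by the median ratio. Of 10 relaxation genes 3 were lower, Gucy1b3, Pde1a and Rgs4, and Rgs4 (which shortens G protein signals) was at 200.1, 1590 and 1418 CPM, against 630, 2420 and 1425 in pericyte-gated cells. Pde1a was lost after scaling by the median ratio. Of 7 Notch genes Nrip2 was lower, at 251, 865 and 694 CPM. Class I MHC genes H2-D1 and H2-K1 were lower, 2 of 6 interferon and MHC genes compared, and H2-D1 was at 36.4, 265 and 343 CPM. Immediate early genes were lower as well, 7 of 13, with Fos at 164, 502 and 578 CPM, and their part in the other results was not tested. Zfp36 was lost after scaling by the median ratio, without scrublet doublets and with a marker sum of at least 30 UMIs, and Ier3 under the last of these.

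Of the 10 cell cycle genes 6 were compared and called higher at P5, and 5 of these had under 20 UMIs at both adult ages, so that they could be called in no other direction. Hmgb2, a chromatin protein abundant in dividing cells, passed at each age, with 578, 92.0 and 143 CPM. The UMIs of the list lay in few cells: 8 of 33 P5 smooth muscle cells had at least 10 UMIs of the 10 listed genes, and these held 85.6% of such UMIs. P5 pericyte-gated cells had 143 of 623 such cells with 85.2% of the UMIs, and the summed level was 1632 CPM against 1284 CPM in the smooth muscle cells. In the adult smooth muscle cells no cell had more than 5.

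The 10 largest excesses at P5 were those of Dlk1, Rgs17, Ncan, Tk1, Knstrn, Cenpm, Fabp5, Cdca3, Ccnb2 and Cdk1. Dlk1, an imprinted membrane protein of growing tissue, had 75 UMIs in 69.7% of the P5 cells (273 CPM) and 0 UMIs at either adult age, so it was at least 67.2-fold and 33.7-fold higher. Rgs17 (a regulator of G proteins) had 40 UMIs in 57.6% of P5 cells and 0 at either adult age, and was at 9.59 CPM in P5 pericyte-gated cells. Fabp5, a fatty acid carrier, was at 2361 CPM at P5 against 50.1 and 35.1, with 1510, 158 and 156 in pericyte-gated cells. The 10 largest deficits were those of Sncg, Olfr558, Asb2, Ephx3, Eml2, Kcna5, Ngb, Slc5a5, Slc11a1 and Ly6c1, of which all but Sncg had 0 UMIs at P5. Ly6c1 is an endothelial marker, found in 2.79% and 5.26% of the adult cells, and its call was lost with a marker sum of at least 30 UMIs or with each cell weighted equally. Of the 10 endothelial markers 3 were compared at P5, and Ly6c1 and Cldn5 were lower. Asb2, a muscle ubiquitin ligase subunit, was at 272 and 243 CPM in the adult cells.

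RNA of genes listed as neural markers was higher at P5. Of 7 astroglial markers 6, and of 6 neuron markers 3, were compared and called higher there, of which Aqp4, Gja1, Gfap, Tubb3 and Sox11 had under 20 UMIs at 24w. Of 6 oligodendrocyte lineage markers 2 were compared and called higher, Olig1 and Cspg5, and the list summed to 618, 120 and 111 CPM in order of age. The summed level of 7 astroglial markers was 1615, 391 and 270 CPM in order of age, and that of 6 neuron markers 2433, 332 and 94.5. P5 pericyte-gated cells had 1690 CPM of the astroglial markers, and all P5 cells together 5676. For the neuron markers these levels were 2201 and 1310 CPM, so the P5 smooth muscle cells lay above all P5 cells together. The neuron markers called higher were Tubb3, Sox11 and Meg3, and the share of each in the P5 sum is not given here. A single P5 smooth muscle cell held 130 of the 444 astroglial UMIs, with a median of 4 per cell, whereas the median of the neuron markers was 19 and the highest 42 of 669. Without scrublet doublets only 3 of the 6 astroglial markers were compared, and 2 of the 6 calls were left, Slc1a2 and Slc1a3. Ncan, a proteoglycan of neural tissue, was at 560 CPM at P5 on 154 UMIs, which was 82.8-fold (34.7 to 259) the 12w and 104-fold (28.2 to 864) the 24w level on 5 and 2 UMIs, and it was at 418 CPM in P5 pericyte-gated cells. The part of this RNA in the excesses at P5 was not tested. Of the 331 genes higher at P5 173, and of the 628 lower 353, were at least 2-fold the same way against both adult ages in pericyte-gated cells. Over all 3465 genes compared 7.24% were higher and 14.2% lower by that measure.

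The scATAC-seq libraries gave a second readout at the starts of these genes, pooled over all nuclei of the sort because the rule needs RNA. In all, 66.5% of 17999 genes had a deposited peak over the 250 bases before a start in the P5 library, 67.7% in the 12w and 65.9% in the 24w library. For the contractile list these were 21, 22 and 22 of 23 genes. A peak at both adult ages and none at P5 was found for 277 genes (1.54%), among them Pln, Sncg, Casq2, Olfr558 and Fbxl22. Of the genes lower at P5 by their RNA 10 of 449 with a sequence (2.23%) had such a peak, against 1 of 250 (0.4%) of those higher at P5. Of the genes higher than in pericyte-gated cells 5 of 188 (2.66%) had one, and of those lower 17 of 566 (3.004%).

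The window of Pln shown above lay in a peak at chr10:53336311-53337883 at 12w and at chr10:53336363-53337890 at 24w. These peaks held 823 and 567 counts, or 2.61 and 2.82 per 1000000 counts of the library. Scaled also by the kilobases of peak, since peak lengths differed, the peak of Acta2 held 3.06, 5.95 and 6.24 in order of age, and that of Des 5.53, 9.45 and 13.0. Vcl held 22.2, 21.3 and 21.9, and Kcna5 5.37, 5.23 and 5.13. Myl9 held 12.8, 10.0 and 12.5, but its peak spanned 2342, 9685 and 9541 bases. Before scaling by peak length Myl9 was lowest at P5, with 30.0, 97.0 and 119 per 1000000 counts. Tesc held 5.16, 3.67 and 2.97, so its peak was highest at P5. Pdlim3, lower at P5 by its RNA, was highest there with 7.74, 6.16 and 6.55, and also before scaling by peak length, with 17.9, 10.9 and 11.4 per 1000000 counts. Ppp1r12a, also lower by its RNA, held 21.7, 13.6 and 14.3 per kilobase, but 66.1, 68.1 and 72.4 before that scaling, which turned its order. Peaks were called in each library by itself, and that of Des spanned 1028, 3347 and 3386 bases. Mural cells were a far smaller share of the P5 sort, so fewer mural nuclei and less open chromatin per nucleus cannot be told apart in these pools.

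**Figure D5:**
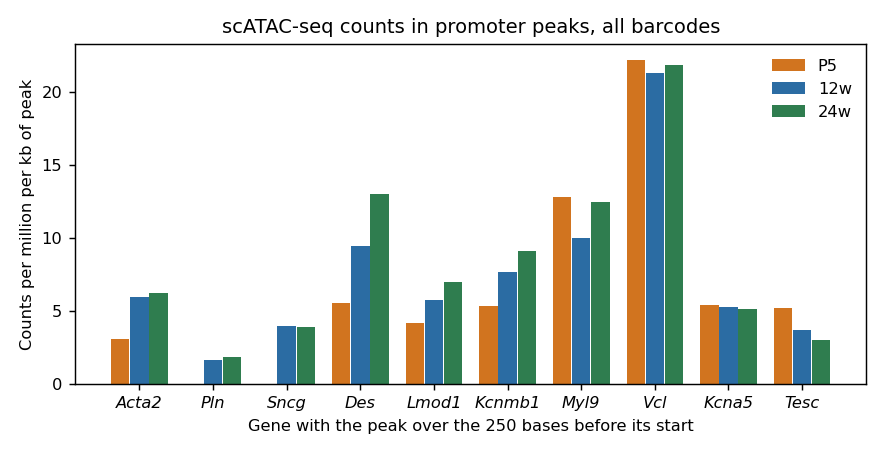
scATAC-seq counts scaled to 1000000 per library and to 1 kilobase of peak (y axis) in the peak over the 250 bases before the start of 10 genes (x axis) at P5, 12w and 24w, over all barcodes of 1 library each. Pln and Sncg have no peak at P5, the bars of Acta2, Des, Lmod1 and Kcnmb1 are lowest at P5, and those of Vcl and Kcna5 are nearly level. The bar of Tesc is highest at P5. That of Myl9 is lowest at 12w, whereas before scaling by peak length Myl9 was lowest at P5.

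Adult smooth muscle cells also varied among themselves. Thinned to 1000 UMIs each, they held a median of 43 UMIs of the rule and contractile genes at 12w (lowest 13, highest 86) and of 42 at 24w (14 to 123). Part of this spread is fixed by the rule, and the share went with the total UMIs of a cell at a Spearman rho of 0.31 at 12w and 0.16 at 24w. Across cells of a library, Crip1 (a LIM protein) had the highest correlation with it at 12w among 709 genes compared, with a rho of 0.39 over 179 cells and of 0.19 over 95 cells at 24w. Ptn, a secreted growth factor, had the lowest, at −0.33 and −0.27. Correlations of this size in sparse counts describe these cells and are no finding.

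Nes, whose promoter drives the reporter of the sort, was at 69.1 CPM (41.6 to 108), 90.7 (70.3 to 115) and 105 (74.9 to 144) in order of age in smooth muscle cells. Pericyte-gated cells had 90.9, 81.6 and 113 CPM. Setd8, the H4K20 methyltransferase that the study turned on, was at 61.8 CPM (36.0 to 99.0), 40.6 (27.4 to 58.0) and 27.0 (12.9 to 49.7) on 17, 30 and 10 UMIs, and its intervals overlapped between every pair of ages.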

How the data were processed

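The scRNA-seq values are UMI counts per gene and barcode, deposited as the authors made them with Cell Ranger 2.2.0 on mm10, and the scATAC-seq values are deposited counts per peak and barcode on the same build, with peaks called per library. All steps here ran in Python 3.11.15 (scipy 1.17.1, numpy 2.4.6, pandas 2.3.3, matplotlib 3.10.9). UMIs were summed over the cells of a group and scaled to CPM, with exact Poisson intervals, and ratios were given exact conditional binomial intervals. Log2 ratios had 0.5 UMIs added to each side. Scrublet in scanpy 1.11.5 called doublets per library (932, 80 and 3), which were kept in the main values. Free RNA was predicted from barcodes with 10 to 100 UMIs, from glial marker lists chosen after other lists had been tried. The rule of size was tried on simulated counts for the comparison with pericyte-gated cells only. These had counting noise alone and changed only genes well above the UMI threshold, so the comparisons between ages were not covered. Promoter windows came from RefSeq and gene models from GENCODE, both on GRCm38, the build of the files.

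The cells, marker genes and gene lists were chosen with earlier results of these data known. Named genes were any of the lists, the 15 largest excesses and 10 largest deficits against pericyte-gated cells by the smaller fold of both ages, the 10 largest in each direction between ages, the strongest correlations, and Nes and Setd8. The RNA-seq of cultured cells, the bulk ATAC-seq and the ChIP-seq of the series were not used here. Some named items are not reported here.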

Additional observations from a re-analysis of the deposited data

How the results depend on the processing

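None of the log2 ratios of the largest changes between groups turned sign under the alternatives tried. Among list genes Ccna2, Birc5 and Olig2 did with each cell weighted equally, and Mfap4, Ccnb1, Aldoc, Gfap, Hbb-bs and some neuron and oligodendrocyte markers did with free RNA subtracted. The counts of genes followed the threshold. At 1.5-fold, 404 genes were higher and 1646 lower than in pericyte-gated cells, 286 and 551 at 24w than at 12w, and 622 and 1031 at P5. At 4-fold these were 113 and 172, 8 and 11, and 110 and 176. With at least 50 UMIs, 137 were higher than in pericyte-gated cells, 8 higher and 30 lower at 24w, and 149 and 293 at P5, and with at least 10 UMIs 178 and 408 at 24w and 598 and 977 at P5. Alternatives chosen after seeing the data were 1 adult age alone (415 higher and 1516 lower than pericyte-gated cells at 12w, 2044 lower at 24w), P5 against 12w alone (1160 lower), cells with at least 2000 UMIs, and at least 20 UMIs expected in the lower group (228 and 41 lower, as given above). With at least 3 UMIs of Myh11 the rule kept 16 cells at P5 and 114 at 12w. Of the log2 ratios of named genes 31 moved beyond their counting interval, all against pericyte-gated cells and 22 of them with free RNA subtracted; this subtraction could not be made at P5.

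No paired analysis was possible because each age has 1 library per assay, whose label carries no replicate number. With 1 library per age, mice, sex and processing cannot be told apart from age. At 24w 3 UMIs in smooth muscle cells are 8.10 CPM and at P5 10.9 CPM, so lower levels were not detectable there.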
